A study of Sus scrofa with 12 samples.

Results

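The 10 genes described here encode enzymes and helpers that fold, trim and crosslink collagen: the prolyl 4-hydroxylase subunits *P4HA1* and *P4HA2*, the lysyl hydroxylases *PLOD1*, *PLOD2* and *PLOD3*, the collagen chaperone *SERPINH1*, the procollagen C-proteinase enhancer *PCOLCE*, and the lysyl oxidases *LOX*, *LOXL1* and *LOXL2*. They were taken by name, and all 10 had an assembled transcript, among 12961 annotated genes with a transcript in at least 1 library. RNA came from the *Longissimus dorsi* (loin) muscle of 12 Iberian pigs, 6 Tough and 6 Tender, with 1 library per animal. All 12 were castrated males of 1 purebred line, fattened outdoors on acorns and grass, slaughtered in the second year of life and chosen for extreme breeding values for cooked meat shear force while avoiding siblings. Shear force was 7.32 to 10.63 kg/cm2 in the 6 Tough animals and 2.18 to 3.43 kg/cm2 in the 6 Tender animals, and the breeding value was 1.76 to 2.40 in Tough and -1.09 to -0.98 in Tender. The question of the comparison was whether muscle expression differed between animals at the high and the low extreme of breeding value for shear force. The design has no untreated baseline, and the groups differ in inherited merit and in phenotype at once. According to the paper, intramuscular fat was also lower in Tough than in Tender, and its part in the values here was not tested.

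Fibrillar collagen is made as procollagen chains in the endoplasmic reticulum. Prolyl 4-hydroxylases modify prolines there so that the triple helix holds at body temperature, lysyl hydroxylases modify lysines, and the chaperone HSP47, the product of *SERPINH1*, binds the folded helix. Outside the cell the propeptides are cut off, a step that *PCOLCE* speeds up, and lysyl oxidases then convert lysines and hydroxylysines to the aldehydes from which crosslinks between molecules form. In muscle, crosslinked collagen of the connective tissue sheaths around fibres and bundles is known as a source of background toughness in meat.

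Levels are in FPKM, the fragments of a transcript scaled to its length and to the mapped fragments of the library, so genes can be set side by side. Each gene's level sums FPKM times length over its assigned transcripts and divides by the length of the gene's exons. For *PCOLCE* and *LOX* the level is given per exon base instead, for reasons of assembly given with each gene. The files hold no read counts. The fragments estimated behind a member, in libraries where it had a single transcript, had a median of 1154 for *SERPINH1*, 1126 for *PLOD1*, 794.3 for *PCOLCE*, 307.4 for *PLOD3*, 225.5 for *LOXL2*, 166.3 for *LOXL1* and 96.9 for *LOX*. The 95% interval that the authors' Cufflinks run gave reached 4.51 to 6.88% to either side of the level for *SERPINH1* and 13.6 to 52.1% for *LOX*, so levels of *LOX* are the least precise of those 7. These intervals cover the assembly and counting of 1 library and not the spread between animals. Skeletal muscle genes stood far above every member, with means of 964 FPKM in Tough and 1213 FPKM in Tender for *MYH7*, the slow myosin heavy chain. *MYH1*, *MYH2*, *MYH4* and *ACTA1*, which define fast fibres and sarcomeric actin, are listed at 0 in all 12 libraries, so the tissue label rests on the other 11 muscle genes, all tested.

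No member was called as different between the groups. In the fit of all genes with limma on log2(FPKM + 0.5), 9017 genes had a mean above 0.5 FPKM, and 0 of them (0%) were called at a p of 0.05, an adjusted p of 0.10 and a fold change of 1.5. The smallest adjusted p over all genes was 0.653. At an unadjusted p of 0.05, limma gave 223 genes (2.47%), 64 higher in Tough (0.71%) and 159 lower in Tough (1.76%), and the exact Wilcoxon test gave 191 genes and 0 calls. Of the 10 members, 9 passed the filter on low values, and 0 of the 9 had a p of 0.05 or less. Per exon base all 10 passed among 9273 genes, with 0 calls (0%), and 265 genes (2.86%) reached an unadjusted p of 0.05, none of them a member. The median log2 fold change of the 9 members, Tough over Tender, was 0.03, against -0.04 over all genes, and 5 of the 9 were above 0, against 39.7% of all genes. The Tough and Tender ranges overlapped for every member, and over all genes 9 (0.0998%) had ranges that did not overlap, or 8 (0.0863%) per exon base. In bulk muscle, fewer cells of a type and less RNA per cell cannot be told apart, and a missed threshold does not show that levels were equal.

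**Figure D1:**
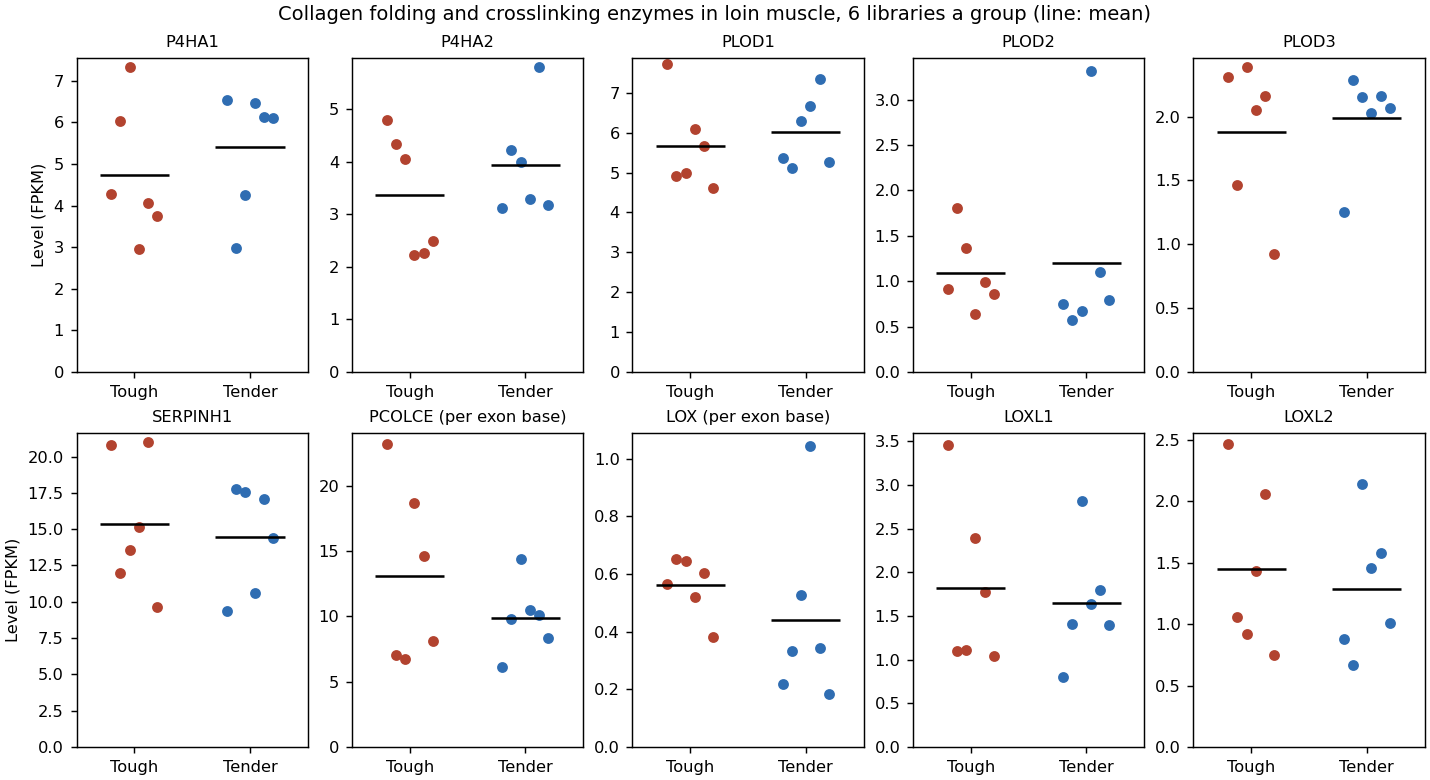
Level in FPKM (vertical axis, from 0) of each of the 10 members in the 6 Tough and the 6 Tender libraries, 1 point per animal, with a line at the group mean. *PCOLCE* and *LOX* are given per exon base. The 2 groups overlap in every panel, and *PLOD2* has 1 Tender animal at 3.32 FPKM above all others.

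By level the members covered a wide range. Over the 12 libraries *SERPINH1* averaged 14.9 ± 4.05 FPKM and *PCOLCE* 11.5 ± 5.26 FPKM per exon base, followed by *PLOD1* with 5.84 ± 0.995, *P4HA1* with 5.07 ± 1.52 and *P4HA2* with 3.65 ± 1.08 FPKM (SD, n = 12). *PLOD3* averaged 1.94 ± 0.464, *LOXL1* 1.73 ± 0.796, *LOXL2* 1.37 ± 0.593, *PLOD2* 1.15 ± 0.768 and *LOX* 0.501 ± 0.234 FPKM, the last per exon base (SD, n = 12). Some neighbours in this order were apart in every animal: *PCOLCE* above *PLOD1*, *P4HA2* above *PLOD3* and *PLOD2* above *LOX* in 12 of 12 libraries. *SERPINH1* exceeded *PCOLCE*, *P4HA1* exceeded *P4HA2* and *LOXL1* exceeded *LOXL2* in 10 of 12. *PLOD1* and *P4HA1*, *PLOD3* and *LOXL1*, and *LOXL2* and *PLOD2* kept their order in 8 of 12, so these neighbours were not separated beyond the spread between animals. The lysyl oxidases and *PLOD2*, the enzymes nearest to the crosslink, were the 4 lowest of the 10.

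The prolyl 4-hydroxylases came first in the pathway. *P4HA1* and *P4HA2* encode the catalytic alpha subunits, which pair with the product of *P4HB*. *P4HA1* had a lowest, median and highest level of 2.96, 4.17 and 7.33 FPKM in the Tough group, against 2.99, 6.12 and 6.54 FPKM in the Tender group. In Tough only animals 2 and 3 were above 6 FPKM, with 6.04 and 7.33, whereas in Tender animals 1, 4, 5 and 6 were, with 6.54, 6.47, 6.13 and 6.11. The fitted log2 fold change of *P4HA1*, Tough over Tender, was -0.19 ± 0.23 (SE) with 95% limits of -0.69 and 0.31 (limma, adjusted p = 1.00), and the exact permutation test over all groupings into 6 and 6, two-sided, gave p = 0.439. *P4HA2* had 2.22, 3.27 and 4.80 FPKM in Tough, against 3.13, 3.64 and 5.79 FPKM in Tender. Tough animals 4, 5 and 6 were the lowest 3 of all 12 for *P4HA2*, at 2.22, 2.26 and 2.49 FPKM, while the other 3 Tough animals stood among the Tender ones. Its log2 fold change was -0.23 ± 0.21 (SE, limits -0.69 and 0.23; exact permutation p = 0.331). *P4HB*, which encodes protein disulfide isomerase and also serves outside this enzyme, averaged 52.6 ± 5.98 FPKM in Tough and 57.6 ± 19.5 FPKM in Tender (SD, n = 6 each), about an order of magnitude above either alpha subunit. Per exon base the order of its means was reversed, with 40.2 ± 11.2 FPKM in Tough and 38.05 ± 6.39 FPKM in Tender (SD, n = 6 each).

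The assembled transcripts separated 2 forms of *P4HA1* that differ in 1 exon. The porcine gene, on chromosome 14 at 75827207 to 75919121 of Sscrofa11.1 (minus strand), has a pair of internal coding exons of equal length that were used in place of one another. They are shown because they let the forms be told apart, with the exon in capitals and 20 intron bases on each side in lower case, read 5′ to 3′ on the gene's strand:
*P4HA1* upstream exon, chr14:75870449-75870519: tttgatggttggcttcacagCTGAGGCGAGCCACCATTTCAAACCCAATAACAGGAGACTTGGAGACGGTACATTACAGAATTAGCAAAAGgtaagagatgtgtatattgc
*P4HA1* downstream exon, chr14:75869346-75869416: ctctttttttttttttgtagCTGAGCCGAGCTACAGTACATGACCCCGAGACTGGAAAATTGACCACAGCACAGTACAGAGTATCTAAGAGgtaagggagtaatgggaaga
Both are 71 bases long, share 43 of the 71 positions (60.6%), and are bounded by ag before and gt after, the dinucleotides at the ends of introns. The sequences were read from the reference genome, not from the animals.

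Both forms of *P4HA1* were assembled in all 12 libraries. The upstream exon was in 51.8 ± 11.4% of the FPKM of the transcripts that span the site in Tough and in 54.9 ± 3.86% in Tender (SD, n = 6 each), a difference of -3.15 percentage points (exact permutation test, two-sided, p = 0.587). The share was 41.0, 47.1, 48.3, 48.3, 52.1 and 73.9% in the Tough animals, lowest to highest, against 47.7, 54.8, 55.3, 56.3, 56.4 and 59.1% in the Tender animals. Of the Tough values 5 lay below 5 of the Tender values, and Tough 1, at 73.9%, lay above all. In Tender 4, 1 assembled transcript held both exons, so the shares of the exons there add to more than the whole.

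*P4HA2*, on chromosome 2 at 134502210 to 134595444 (minus strand), has a like pair of adjacent alternative exons, of 60 and 66 bases, both whole numbers of codons. They are shown in the same way because 1 form was missing from part of the libraries:
*P4HA2* upstream exon, chr2:134507263-134507322: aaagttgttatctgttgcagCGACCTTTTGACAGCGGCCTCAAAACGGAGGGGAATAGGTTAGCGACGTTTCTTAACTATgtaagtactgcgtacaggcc
*P4HA2* downstream exon, chr2:134507148-134507213: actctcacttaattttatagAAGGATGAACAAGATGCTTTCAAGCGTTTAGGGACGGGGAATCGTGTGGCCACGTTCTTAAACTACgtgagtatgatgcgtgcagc
Aligned, they share 33 of 66 positions (50.0%). The upstream exon carried most of the signal, with 88.5 ± 9.60% in Tough and 91.6 ± 6.79% in Tender (SD, n = 6 each; exact permutation p = 0.502). A transcript with the downstream exon was assembled in 8 of 12 libraries and was absent from the assembly of Tough 3, Tough 5, Tender 1 and Tender 4. Where it was assembled its share was 11.8 to 22.8% in Tough and 9.85 to 15.0% in Tender.

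The lysyl hydroxylases did not separate the groups either. *PLOD1*, whose product acts on lysines within the collagen helix, varied least of all 10, with a coefficient of variation of 17.0% over the 12 libraries. It had 4.62, 5.32 and 7.72 FPKM (lowest, median, highest) in Tough, against 5.12, 5.83 and 7.34 FPKM in Tender, with Tough 1 and Tender 5 as the highest of their groups. Its log2 fold change was -0.09 ± 0.14 (SE, limits -0.39 and 0.22; exact permutation p = 0.524), the narrowest interval among the members. *PLOD3*, which in addition adds sugars to hydroxylysine, had 0.926, 2.11 and 2.39 FPKM in Tough, against 1.25, 2.11 and 2.29 FPKM in Tender. Low values of *PLOD3* occurred in 2 Tough animals, Tough 6 at 0.926 and Tough 2 at 1.46 FPKM, and in Tender 1 at 1.25 FPKM. Its log2 fold change was -0.09 ± 0.19 (SE, limits -0.50 and 0.32; exact permutation p = 0.695).

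*PLOD2* encodes the lysyl hydroxylase that acts on the telopeptides, the ends of the chain where crosslinks start. Its level was 0.914, 1.81, 1.36, 0.634, 0.991 and 0.854 FPKM in Tough animals 1 to 6, against 0.744, 0.569, 0.673, 3.32, 1.10 and 0.794 FPKM in Tender animals 1 to 6. Apart from Tender 4, at 3.32 FPKM, no library exceeded the 1.81 FPKM of Tough 2, and the other 5 Tender values lay inside or below the Tough range. The log2 fold change of *PLOD2* was 0.03 ± 0.29 (SE, limits -0.61 and 0.67; exact permutation p = 0.933). The Tender mean of 1.20 ± 1.06 FPKM exceeded the Tough mean of 1.09 ± 0.423 FPKM (SD, n = 6 each) while the fitted log2 difference was positive, since the linear mean follows Tender 4. Without Tender 4 the fitted value was 0.30, also with no call. In Tender 4, *LOX* (1.05 FPKM per exon base) and *COL3A1* (44.5 FPKM) were also at their highest of the 12 libraries, and the scaling factor by median of ratios, 1.30, was the highest as well. Their part in the *PLOD2* value of this animal was not tested.

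*PLOD2*, on chromosome 13 at 86402673 to 86513167 (minus strand), has 1 short internal exon that annotated transcripts either include (2 of 3) or skip. In humans the transcript with this exon encodes the long form, the one known for the telopeptide lysines. It is shown because the share of that form bears on the crosslink route:
*PLOD2* alternative exon, chr13:86411156-86411218: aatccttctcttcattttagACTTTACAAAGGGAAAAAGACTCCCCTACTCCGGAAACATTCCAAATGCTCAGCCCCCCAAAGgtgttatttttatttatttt
It is 63 bases long, a whole number of codons. A transcript that contained it was assembled in 9 of the 11 libraries with a transcript spanning the site, and Tough 4 had none that spanned it. The share with the exon was taken of the FPKM of the *PLOD2* transcripts that span the site. It was 26.3, 19.4, 0, 37.2 and 29.0% in Tough animals 1, 2, 3, 5 and 6, against 0, 60.9, 45.8, 38.6, 23.3 and 40.3% in Tender animals 1 to 6. Of the 6 Tender values 4 lay above every Tough value, and the means were 22.4 ± 14.0% in Tough (SD, n = 5) and 34.8 ± 20.9% in Tender (SD, n = 6). Because 1 Tough animal has no value, no test was made. At levels near 1 FPKM a share of 0 says only that the assembly gave no such transcript.

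**Figure D2:**
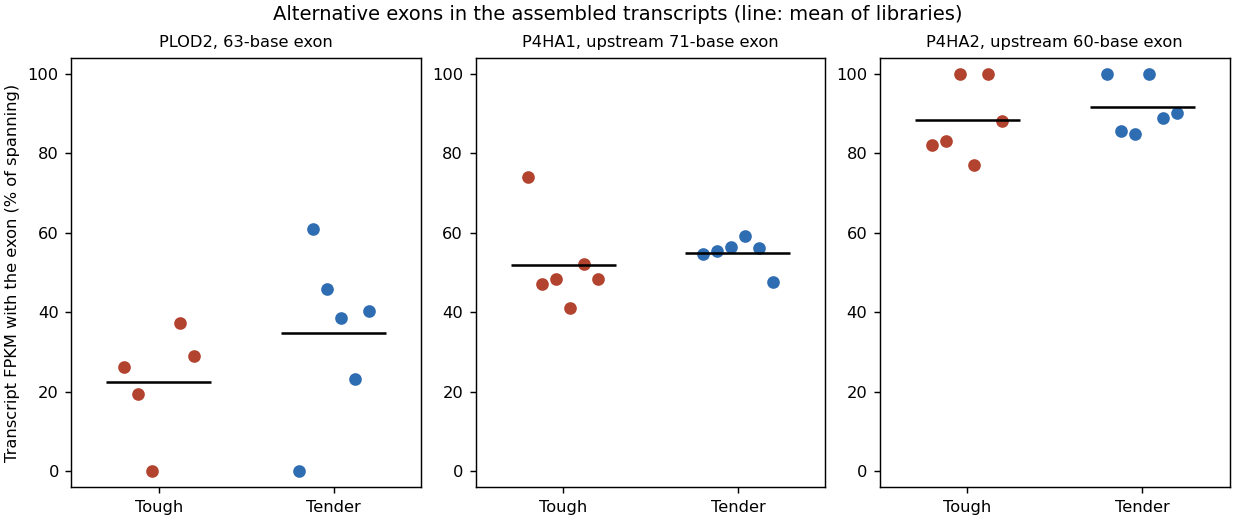
Share of transcript FPKM that contains the alternative exon (vertical axis, percent of the transcripts that span the site) for *PLOD2*, *P4HA1* and *P4HA2*, 1 point per library in Tough and in Tender, with a line at the mean. *P4HA1* is near an even split in most libraries (means 51.8 and 54.9%), *P4HA2* is mostly of the upstream form, and *PLOD2* ranges between 0 and 60.9%.

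*SERPINH1*, the chaperone that binds folded procollagen, was the highest member. Its level was 20.8, 11.95, 13.6, 15.1, 21.0 and 9.63 FPKM in Tough animals 1 to 6, against 9.37, 17.8, 17.6, 10.6, 17.1 and 14.4 FPKM in Tender animals 1 to 6. Tough 1 and Tough 5 were the 2 highest of all 12, and the lowest 3 were Tender 1, Tough 6 and Tender 4. The log2 fold change was 0.07 ± 0.23 (SE, limits -0.42 and 0.56; exact permutation p = 0.755).

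*PCOLCE*, the secreted enhancer of C-propeptide removal, lies on chromosome 3 at 8523455 to 8528749 (plus strand), inside the span that the annotation gives to *FBXO24* on the same strand, whose 1 annotated transcript runs on over *PCOLCE*. In Tough 1, Tough 5, Tender 2 and Tender 3 the assembled *PCOLCE* transcript shared more bases with that model, so *PCOLCE* is listed at 0 there by the rule of assigned transcripts. No assembled transcript counted for either gene over *PCOLCE* began more than 121 bases before the annotated start of *PCOLCE*. Per exon base the level was 23.2, 7.06, 6.72, 18.7, 14.6 and 8.14 FPKM in Tough animals 1 to 6, against 6.09, 9.79, 14.4, 10.5, 10.1 and 8.36 FPKM in Tender animals 1 to 6. Tough animals 1, 4 and 5 were above every Tender animal and the other 3 stood among the lower Tender values. The log2 fold change per exon base was 0.27 ± 0.31 (SE, limits -0.39 and 0.93; exact permutation p = 0.435), the widest interval of the per-base values, and reads of *PCOLCE* and *FBXO24* cannot be told apart where they overlap.

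The lysyl oxidases, which start the crosslink, were low. *LOXL1*, known for elastic fibres, had 1.05, 1.44 and 3.46 FPKM (lowest, median, highest) in Tough, against 0.804, 1.52 and 2.82 FPKM in Tender. Its log2 fold change was 0.07 ± 0.27 (SE, limits -0.52 and 0.66; exact permutation p = 0.801). *LOXL2* had 0.748, 1.25 and 2.46 FPKM in Tough, against 0.671, 1.23 and 2.14 FPKM in Tender, with a log2 fold change of 0.10 ± 0.25 (SE, limits -0.45 and 0.66; exact permutation p = 0.690). For both genes Tough 1 was the highest Tough animal and Tender 3 the highest Tender animal.

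*LOX*, the founding member of the family, was the lowest member. In 8 libraries its spliced transcript ran 670 to 3212 bases past the annotated 3′ end, next to 1580 annotated exon bases, so in 5 libraries, 3 Tough and 2 Tender, no transcript had enough of its bases in the gene and *LOX* is listed at 0. Per exon base its level was 0.566, 0.651, 0.646, 0.520, 0.603 and 0.383 FPKM in Tough animals 1 to 6, against 0.217, 0.332, 0.526, 1.05, 0.342 and 0.185 FPKM in Tender animals 1 to 6. Of the 6 Tough animals 5 were above 0.5 FPKM, and of the 6 Tender animals 2 were, Tender 3 and Tender 4. The Tough mean was 0.562 ± 0.101 and the Tender mean 0.441 ± 0.319 FPKM (SD, n = 6 each), with a log2 fold change of 0.23 ± 0.19 (SE, limits -0.17 and 0.63; exact permutation p = 0.255).

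**Figure D3:**
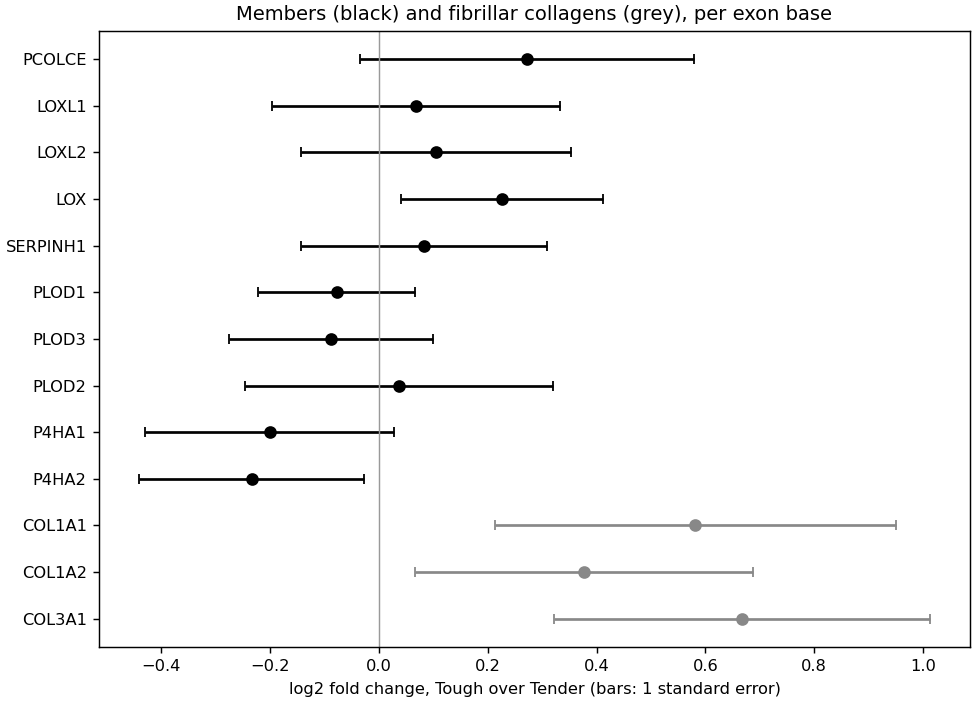
Fitted log2 fold change per exon base, Tough over Tender (horizontal axis, bars of 1 standard error), for the 10 members in black and for *COL1A1*, *COL1A2* and *COL3A1* in grey. Members lie between -0.23 and 0.27, and the collagens between 0.38 and 0.67, none of them called.

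None of *COL1A1*, *COL1A2* and *COL3A1*, the main fibrillar substrates, was called. The study, with Cuffdiff and a further Tender animal, reported *COL1A1* and *COL1A2* as higher in Tough. It also measured *COL1A1* by qPCR, where the level was likewise higher in Tough. *COL1A1* averaged 19.3 ± 11.05 FPKM in Tough and 11.5 ± 4.51 FPKM in Tender, *COL1A2* 13.6 ± 6.49 FPKM in Tough and 9.49 ± 3.13 FPKM in Tender, and *COL3A1* 26.9 ± 10.7 FPKM in Tough and 17.8 ± 13.3 FPKM in Tender (SD, n = 6 each). Their log2 fold changes were 0.59 ± 0.38, 0.41 ± 0.32 and 0.71 ± 0.37 (SE), with unadjusted limma p of 0.150, 0.222 and 0.0759. Tough 1, 4 and 5 had the 3 highest *COL1A1* and *COL1A2* levels of all 12, and Tender 4 had the highest *COL3A1*.

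To set each enzyme against its substrate within a library, the log2 ratio of each member to the mean of the 3 collagens was compared between groups. By assigned transcripts all 10 differences in ratio, Tough minus Tender, were below 0, between -0.47 and -0.80, and they share the same denominator. Per exon base they were smaller for *LOX*, at -0.32 (exact permutation p = 0.318), and for *PCOLCE*, at -0.27 (exact permutation p = 0.132). Over all other tested genes the difference in ratio to these 3 collagens was below 0 for 97% by assigned transcripts and 98.3% per exon base, so the direction is not a result about the members. For *PLOD1* the ratio was -1.55 ± 0.515 in Tough and -0.89 ± 0.451 in Tender on the log2 scale (SD, n = 6 each), a difference of -0.66 (exact permutation test, two-sided, unadjusted p = 0.0390). For *LOXL1* it was -3.03 ± 0.319 in Tough and -2.53 ± 0.401 in Tender, a difference of -0.50 (exact permutation, unadjusted p = 0.0433). For *PLOD3* the difference was -0.66 (p = 0.0584) and for *LOXL2* -0.47 (p = 0.0779), by the same exact permutation test, and the other 6 had p of 0.121 or more. So 2 of 10 ratios had an unadjusted p of 0.05 or less, against 12.5% of all tested genes by the same exact permutation test, with the groups overlapping in every ratio. That count was 0 without Tough 4, 5 or 6 or Tender 1, 2, 5 or 6, 1 without Tough 1 or Tender 3, 5 without Tough 2 and 6 without Tender 4. Per exon base it was 1 of 10, *LOXL1* with -0.47 (exact permutation p = 0.0498), against 10.2% of all genes. Shares this near the background give no result about the members.

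Each member was also set against collagen animal by animal. This relation was chosen after the values were seen, and 10 members were looked at per exon base. *PCOLCE* followed the mean log2 level of the 3 collagens most closely over the 12 libraries, with Pearson r = 0.887 (permutation p = 0.00028, adjusted 0.0028) and Spearman rho = 0.853 (permutation p = 0.0007, adjusted 0.007). Without the 2 libraries farthest from the median collagen level r was 0.788. Within the groups r was 0.962 in the 6 Tough and 0.748 in the 6 Tender animals (exact permutation p = 0.0222 and 0.0833, adjusted 0.0972 and 0.308). *LOXL1* had r = 0.766 (permutation p = 0.00397, adjusted 0.0199) and rho = 0.741 (permutation p = 0.00753, adjusted 0.0377). Its r was 0.589 without the 2 libraries, 0.894 within Tough and 0.684 within Tender (adjusted exact permutation p = 0.0972 in Tough and 0.308 in Tender). *LOXL2* had r = 0.749 (permutation p = 0.00714, adjusted 0.0238) and rho = 0.664 (permutation p = 0.0213, adjusted 0.0711). Its r was 0.707 without the 2 libraries, 0.849 within Tough and 0.674 within Tender (adjusted exact permutation p = 0.142 in Tough and 0.308 in Tender). The other 7 did not pass the adjustment. The share of all tested genes that follow these collagens as closely was not computed. The relation is therefore not shown to be particular to *PCOLCE*, *LOXL1* and *LOXL2*. *PLOD1* and *LOX* had r of 0.575 and 0.576 (adjusted permutation p = 0.106 each), *SERPINH1* 0.474, *PLOD3* 0.395 and *PLOD2* 0.079, while both prolyl hydroxylases were below 0, at -0.336 for *P4HA2* and -0.468 for *P4HA1*. By assigned transcripts, where *PCOLCE* is listed at 0 in 4 libraries, its r over the 12 libraries was -0.281. By that measure r was 0.758 for *LOXL1* and 0.738 for *LOXL2*.

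Within the groups *PLOD2* had r = -0.751 with collagen in the 6 Tough animals and 0.701 in the 6 Tender animals, and without the 2 libraries farthest from the median collagen level of each group r was -0.608 in Tough and 0.346 in Tender. The difference between the groups was not tested, and the Tender value rests in large part on those libraries. Fibroblast marker transcripts were high in some of the libraries with high collagen. The summed level of a list of 12 fibroblast markers, all 12 detected, was 99.4 to 303.1 FPKM per exon base in Tough and 108.3 to 205.0 FPKM in Tender, highest in Tough 1 at 303.1, Tender 4 at 205.0 and Tough 4 at 201.7, and 0 of its 12 genes reached a p of 0.05 in limma. Its part in these relations was not tested.

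**Figure D4:**
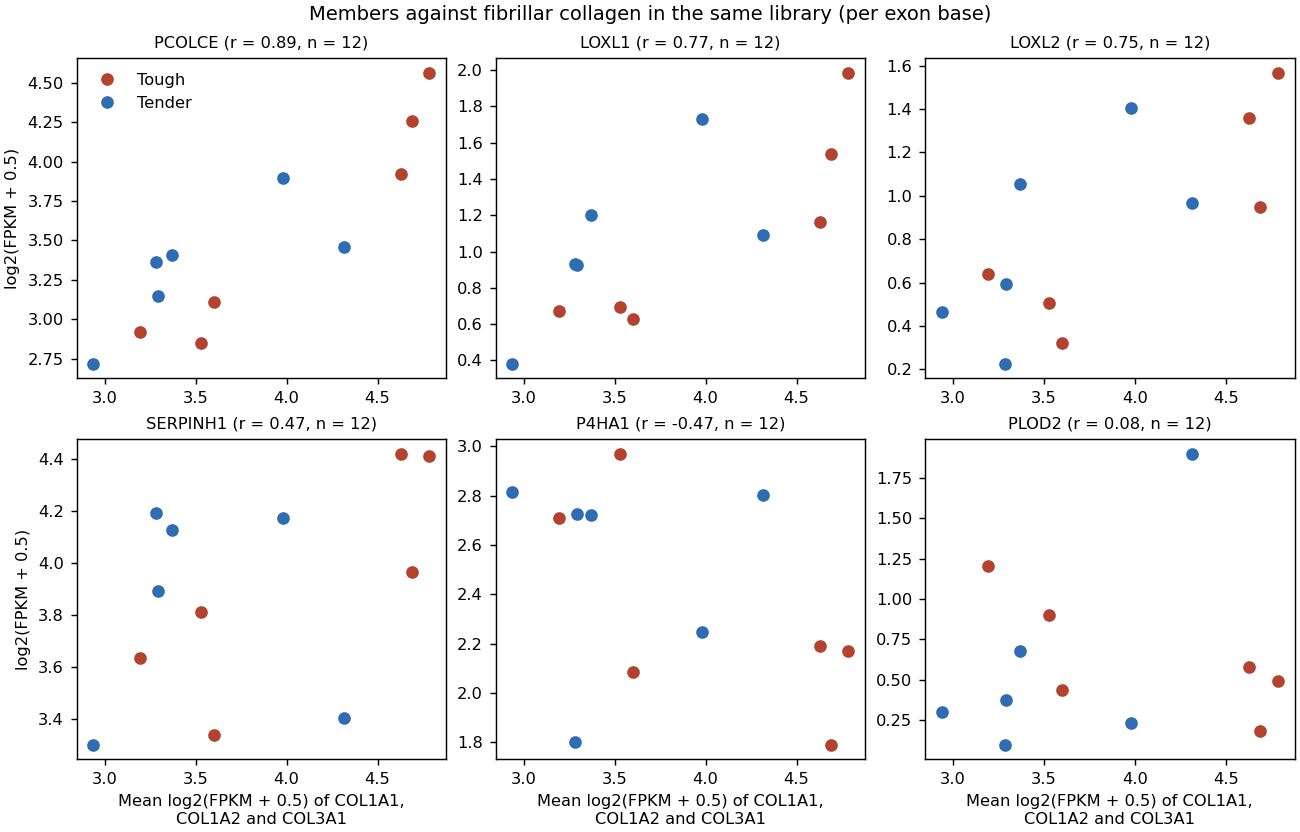
Level of 6 members per exon base (vertical axis, log2(FPKM + 0.5)) against the mean log2 level of *COL1A1*, *COL1A2* and *COL3A1* in the same library (horizontal axis), 1 point per animal, with Tough and Tender in separate colours. *PCOLCE*, *LOXL1* and *LOXL2* rise with collagen (r = 0.887, 0.766 and 0.749), and r is -0.468 for *P4HA1* and 0.079 for *PLOD2*.

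Read by animal rather than by gene, the members were not high or low together in a group. Tough 1 had the highest level of the 12 for 4 members and was among the top 3 for 7. Tough 6 was among the lowest 3 for 7 members, and Tender 1 among the lowest 3 for 6. So the extremes of the enzyme set came from animals of the same group as well as from both groups. These ranks are of FPKM without scaling between libraries. The scaling factor by median of ratios was 1.12 in Tough 1, 0.839 in Tough 6, 0.896 in Tender 1 and 0.871 in Tough 4. Its part in these ranks was not tested. Tough 1 and Tough 4 both had high collagen, and they differed at *P4HA2*, with 4.80 FPKM in Tough 1 and 2.22 FPKM in Tough 4.

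**Figure D5:**
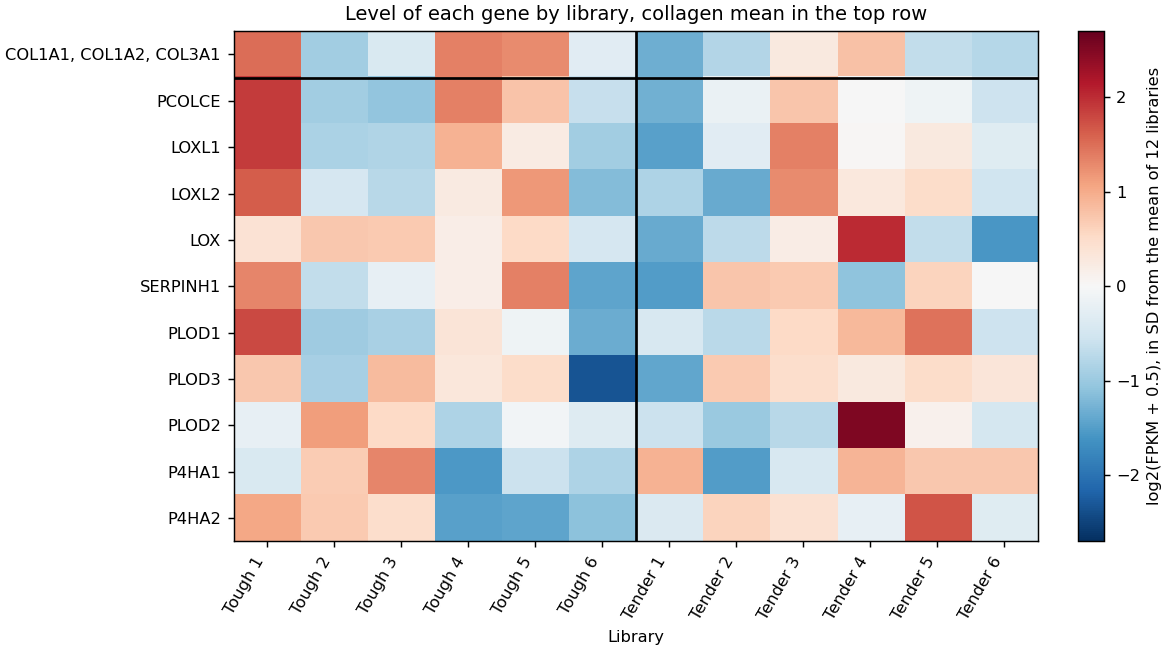
Each cell gives the log2(FPKM + 0.5) level of a gene in a library, in SD from its mean over the 12 libraries, with Tough on the left and Tender on the right and the mean of the 3 collagens in the top row. The top row, *PCOLCE* and *LOX* are per exon base, and the other rows are by assigned transcripts. *PCOLCE*, *LOXL1* and *LOXL2* follow the top row in part. In Tender 4, where collagen is high, they are at -0.01, 0.03 and 0.29 SD. Tender 4 stands out at *PLOD2* and *LOX*.

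Shear force was also followed within each group, since the groups form separate clusters and no pooled correlation applies. Of 20 relations, 10 members in 2 groups, none passed the adjustment. The smallest p was for *PLOD1* in Tough, with Pearson r = 0.761 (exact permutation p = 0.0778, adjusted 0.648) and Spearman rho = 0.771 (exact permutation p = 0.103, adjusted 0.919), and r was 0.388 without the 2 animals farthest from the median shear force. *LOXL2* in Tender had r = 0.726 (exact permutation p = 0.0903, adjusted 0.648) and rho = 0.486 (exact permutation p = 0.356, adjusted 0.919), and without 2 animals its r was -0.942, so it rests on those animals.

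Other genes of the pathway were taken from lists, with 0 called in each direction in every list. Of 15 further genes of collagen folding and modification, 12 were tested, 6 above and 6 below 0, with a median log2 fold change of 0.00 (0.04 with either scaling) and 0 genes at a p of 0.05. The one of smallest p was *PPIB*, which encodes the proline isomerase cyclophilin B, with 5.99 ± 1.63 FPKM in Tough and 7.85 ± 1.83 FPKM in Tender (SD, n = 6 each; exact permutation p = 0.0887). Per exon base *PPIB* had 5.37 ± 1.26 FPKM in Tough and 7.55 ± 1.87 FPKM in Tender (SD, n = 6 each; limma, unadjusted p = 0.0307, adjusted 1.00; exact permutation p = 0.0390), the 1 gene of 11 tested there at a p of 0.05, and it was not called. *P3H4*, which encodes a partner of the prolyl 3-hydroxylases, had 1.01 FPKM in Tough and 0.754 FPKM in Tender (exact permutation p = 0.158). Procollagen leaves the endoplasmic reticulum in large transport carriers, and of 11 genes of this export 7 were above and 4 below 0, with a median of 0.05. *SEC24D*, a coat subunit of those carriers, had 1.16 ± 0.228 FPKM in Tough and 0.853 ± 0.291 FPKM in Tender (exact permutation p = 0.0563), and *SEC31A*, another coat subunit, 6.33 FPKM in Tough and 7.35 FPKM in Tender (p = 0.123).

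Of 7 genes of propeptide trimming, 3 were tested and *TLL1*, *ADAMTS3* and *ADAMTS14* are listed at 0 in all 12 libraries. *PCOLCE2*, the relative of *PCOLCE*, had 3.19 FPKM in Tough and 2.34 FPKM in Tender (exact permutation p = 0.268), *ADAMTS2*, the N-propeptide protease, 0.617 in Tough and 0.422 in Tender (p = 0.331), and *BMP1*, the C-propeptide protease, 2.84 in Tough and 2.84 in Tender (p = 0.974). Of 10 other genes of crosslinking and fibre assembly 6 were tested, 4 above and 2 below 0, with *FN1* (fibronectin) at 6.07 FPKM in Tough and 3.91 FPKM in Tender (exact permutation p = 0.154) and *ELN* (elastin) at 5.06 FPKM in Tough and 4.07 FPKM in Tender (p = 0.465). The study, with Cuffdiff and a further Tender animal, reported *FN1* as higher in Tough. *LOXL4* averaged 0.402 FPKM in Tough and 0.417 in Tender. *LOXL3* is listed at 0 in 9 of 12 libraries and *POSTN*, periostin, in 11 of 12, and as abundant muscle genes are also listed at 0, this does not show that they were absent.

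Of 15 collagen chains 13 are in the annotation and 10 were tested, 9 of them above 0, with a median log2 fold change of 0.23 against -0.04 over all genes. *COL14A1*, a collagen at the surface of fibrils, was the 1 gene of the 10 at a p of 0.05 or less, with 1.73 ± 0.679 FPKM in Tough and 0.990 ± 0.555 FPKM in Tender (SD, n = 6 each) and a log2 fold change of 0.60 ± 0.26 (SE, limma, unadjusted p = 0.0363, adjusted 1.00; exact permutation p = 0.0519). It was not called in this fit, whereas the study reported *COL14A1* as higher in Tough, with Cuffdiff and a further Tender animal. The study also reported *COL12A1* as higher in Tough. Here *COL12A1* was below the filter on low values and not tested in limma. Its level was 0.475 ± 0.257 FPKM in Tough and 0.239 ± 0.114 FPKM in Tender (SD, n = 6 each, exact permutation p = 0.0758). The exact permutation p-values of these lists are two-sided and unadjusted.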

How the data were processed

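RNA from 12 loin samples was analysed, 6 Tough and 6 Tender, with groups and shear force as the labels give them. A seventh Tender animal of the study is not analysed here. According to the methods and labels, the authors ran FastQC and Trim Galore, mapped with TopHat2 2.1.0 to Sscrofa11.1 and assembled each library with Cufflinks 2.2.1. The deposited files give each transcript's exons, its FPKM as the authors' Cufflinks computed it, and an isoform score, deposited as a whole number, which was not used. The assemblies hold 25798 to 31353 transcripts, and loci of a single transcript had a median of 29.0 to 40.0 estimated fragments per library.

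On the same strand of the NCBI annotation of Sscrofa11.1, transcripts were assigned to the gene that held at least 50% of their exonic bases. This assigned 63.2 to 73.8% of transcripts and left out unstranded ones. Per exon base, the part of every same-strand transcript inside a gene's exons is used, with no minimum. The 10 members and the 17 gene lists were chosen with earlier results of these data known, and the measure per exon base for *PCOLCE* and *LOX* after the values were seen.

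The filter kept genes above 0.5 FPKM on average, tested with limma 3.58.1 (trend) in R 4.3.3 on log2(FPKM + 0.5), so fold changes of low genes are understated, with Benjamini-Hochberg adjustment over all genes. Single values used exact permutation tests over all groupings into 6 and 6, and correlations 100000 permutations, or all 720 pairings within a group of 6. Each library is a separate animal. Named genes are the members, 3 collagens and up to 3 genes of smallest p per list, plus genes listed at or near 0, *P4HB*, *LOXL4* and *COL12A1*, chosen after their values were seen. Alternatives changed the pseudocount, filter, scaling, gene measure, test, block and libraries. Which lane and which fattening batch an animal had is not given in the sources used here. Other steps ran in Python 3.11.15 (scipy 1.17.1, matplotlib 3.10.9, pandas 2.3.3 and numpy 2.4.6).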

Additional observations from a re-analysis of the deposited data

Results flagged for a closer look

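Among 20 groups of 6 values looked at for the members, 2 held a value whose gap to the next was large against the range of its group, above Dixon's 95% critical value, and chance gives about 1 in 20 groups such a value. *PLOD2* in Tender 4 was 3.322 FPKM, against 1.099 FPKM in the next Tender animal, a gap of 0.807 of the range. *PLOD3* in Tender 1 was 1.249 FPKM, below the next Tender animal at 2.026 FPKM, a gap of 0.748 of the range. Among 6 groups of exon shares, the upstream exon of *P4HA1* in Tough 1, at 73.94%, stood above the next Tough animal at 52.07%, a gap of 0.663 of the range.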

How the results depend on the processing

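No member was called under any alternative in which it was fitted. *LOX* was fitted in 2 of the settings that keep all libraries, where each other member was fitted in 12. Per exon base it was fitted in 5 of the fits with 1 library left out, with log2 fold changes of 0.15 to 0.28. Plain sums of transcript FPKM turned the log2 fold change of *PLOD2* to -0.17 and of *SERPINH1* to -0.10. With each library left out, the log2 fold change ran over -0.10 to 0.21 for *LOXL1*, -0.031 to 0.23 for *LOXL2*, -0.085 to 0.30 for *PLOD2*, -0.19 to 0.051 for *PLOD3*, -0.040 to 0.19 for *SERPINH1* and -0.49 to 0.64 for *PCOLCE* by assigned transcripts, with 0.08 to 0.42 per exon base, while *P4HA1*, *P4HA2* and *PLOD1* stayed below 0. The count of collagen ratios at an unadjusted p of 0.05 was 2, and it was 1 against *COL1A1* alone, 1 per exon base and 0 to 6 with each library left out. The animal number as a replicate block gave 0 calls. Those numbers are names only: deviations of same-numbered animals had correlations of -0.224 to 0.0233, and 0 of 12 libraries correlated best with their own number. Over all genes, 0 were called under every setting by assigned transcripts, and per exon base 2 were called without Tender 2. Depth limits *LOX*, with 14.7 to 215.8 estimated fragments a library where it had 1 transcript, and no read counts were used.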

Other observations

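Of the chaperones of the endoplasmic reticulum, where procollagen folds, 10 were tested and 0 were called. The log2 fold change was above 0 for 0 of the 10, against 39.7% of all genes, with a median of -0.29 against -0.04 over all genes, and 0 of 10 reached a p of 0.05 in limma. All 10 were also below 0 with median-of-ratios scaling (median -0.24) and with quantile normalization (median -0.23). *HYOU1*, a chaperone of the stressed endoplasmic reticulum, had 2.76 ± 0.448 FPKM in Tough and 3.47 ± 0.602 FPKM in Tender, *MANF* 11.5 ± 2.05 FPKM in Tough and 14.9 ± 3.27 FPKM in Tender, and *HSPA5*, the chaperone BiP, 21.7 ± 7.47 FPKM in Tough and 27.3 ± 5.15 FPKM in Tender (SD, n = 6 each). Their unadjusted limma p were 0.0565, 0.0591 and 0.108. Of 10 tested heat shock genes 7 were below 0, with a median of -0.47, and *HSP90AB1* reached an unadjusted p of 0.0430, with 90.8 ± 36.3 FPKM in Tough and 128.3 ± 27.2 FPKM in Tender (limma, adjusted p = 1.00; exact permutation p = 0.0628). With median-of-ratios scaling and with quantile normalization 0 of the 10 heat shock genes reached a p of 0.05 in limma. Per exon base 2 of the 10 reached it, and 8 of the 10 were below 0.

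*P4HA1*, *P4HA2*, *PLOD2* and *LOX* are known as targets of hypoxia-inducible factors in other settings. Of 14 tested hypoxia targets 4 were above and 10 below 0, with a median of -0.05 and 0 at a p of 0.05. *PDK1*, which holds pyruvate back from oxidation, had 6.01 ± 3.60 FPKM in Tough and 6.81 ± 1.22 FPKM in Tender (exact permutation p = 0.346), and *BNIP3* 174.2 ± 16.9 FPKM in Tough and 161.6 ± 29.2 FPKM in Tender (p = 0.297). Of 9 tested targets of transforming growth factor beta 5 were above and 4 below 0, with a median of 0.01, and *CCN2* had 5.21 ± 1.79 FPKM in Tough and 3.83 ± 2.78 FPKM in Tender (exact permutation p = 0.227). The study, with Cuffdiff and a further Tender animal, counted *CCN2* among its differentially expressed genes.

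Markers of other cell types gave 0 calls. Of the fibroblast markers 11 of 12 were above 0 (median 0.12), of endothelium 0 of 7 (median -0.24; 1 of 7 with median-of-ratios scaling), of smooth muscle 6 of 7 (median 0.12), of macrophages 1 of 7 (median -0.41), of adipocytes 2 of 5 (median -0.06) and of skeletal muscle 8 of 11 (median 0.20). Per exon base smooth muscle had 5 of 8 above 0 (median 0.03), macrophages 2 of 7 (median -0.33) and adipocytes 1 of 6 (median -0.04). By the same measure fibroblast markers had 11 of 12 (median 0.17), endothelium 0 of 7 (median -0.24) and skeletal muscle 8 of 11 (median 0.10). *LPL* of the adipocyte list had 16.0 ± 6.11 FPKM in Tough and 33.4 ± 20.9 FPKM in Tender (limma, unadjusted p = 0.0491, and exact permutation p = 0.0801). With quantile normalization 0 genes of that list reached a p of 0.05 in limma. The study, with Cuffdiff and a further Tender animal, counted *LPL* among its differentially expressed genes. Of the tendon and cartilage list 2 were tested, 1 above and 1 below 0. *CILP* had 10.8 ± 3.49 FPKM in Tough and 14.5 ± 1.89 FPKM in Tender (limma, unadjusted p = 0.0241, and exact permutation p = 0.0390). *COMP* went the other way, with 0.793 ± 1.27 FPKM in Tough and 0.635 ± 1.185 FPKM in Tender (exact permutation p = 0.892). Not tested were *TNMD*, with 0.376 FPKM in Tough and 0.111 FPKM in Tender, and *CHAD*, with 0.222 FPKM in Tough and 0.131 FPKM in Tender. *SCX*, *MKX*, *SOX9* and *ACAN*, defining genes of that list, are listed at 0 in all 12 libraries.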
